A study of Mus musculus with 96 samples.

Results

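The 8 genes examined were Sox9, Onecut1, Gata6, Krt7, Krt19, Spp1, Cftr and Muc1, taken by gene symbol from the deposited table as genes of pancreatic ducts and pancreatic progenitors, out of 21990 genes in all. They were followed in islets and liver of 48 male C57BL/6N mice, bought at 4 weeks of age and given a chow diet (CD, LabDiet 5001 with 13.5% fat) or a high-fat diet (HFD, Research Diets D12492 with 60% fat) for 4, 8, 12, 16, 20 or 24 weeks. Each combination of diet and week held 4 mice, and each mouse gave 1 islet and 1 liver library, which made 96 libraries in 24 groups. No allele or transgene was involved, the week on diet went together with the age of the mice, and islets were freed with collagenase, separated on a density gradient and picked by hand. The values are FPKM, fragments per kilobase of transcript and M mapped fragments (1e+06), so that levels of genes of different length can be set side by side. The deposited table holds no read counts, and the depth behind each value is unknown from it.

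Ducts carry the digestive secretion of the exocrine pancreas to the gut, and the cells that line them are small in number in a hand-picked islet preparation. In the embryo, duct, acinar and endocrine cells descend from common multipotent progenitors. SOX9 maintains these progenitors and later remains in duct and centroacinar cells, ONECUT1 (HNF6) acts upstream of the endocrine program and remains in ducts, and GATA6 is needed for the pancreas to form. Keratins 7 and 19 are intermediate filament proteins of simple and ductal epithelia. Spp1 encodes osteopontin, a secreted phosphoprotein that macrophages make as well as duct cells, Cftr encodes the chloride and bicarbonate channel of the duct lumen, and Muc1 encodes a transmembrane mucin of glandular epithelia, acinar cells included.

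The 250 bases before the transcription start were taken from RefSeq (GRCm38.p6) for 5 members, Onecut1, Krt7, Spp1, Cftr and Muc1. Those of Sox9 and Krt19 were not available, and Gata6 was left out. Shown here, because the genes differed in their response, are those of 2 genes that were lower in HFD islets, Onecut1 and Muc1, and of Spp1, which was not lower, 5′ to 3′ on the plus strand, with matches to any of the 5 motifs searched in capitals.
Onecut1, chr9:74861671-74861920: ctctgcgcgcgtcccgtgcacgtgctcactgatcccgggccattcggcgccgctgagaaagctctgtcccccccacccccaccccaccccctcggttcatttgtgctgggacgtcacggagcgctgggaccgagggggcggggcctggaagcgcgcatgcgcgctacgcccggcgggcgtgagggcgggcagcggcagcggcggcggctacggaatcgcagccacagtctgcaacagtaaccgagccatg
Muc1, chr3:89228806-89229055: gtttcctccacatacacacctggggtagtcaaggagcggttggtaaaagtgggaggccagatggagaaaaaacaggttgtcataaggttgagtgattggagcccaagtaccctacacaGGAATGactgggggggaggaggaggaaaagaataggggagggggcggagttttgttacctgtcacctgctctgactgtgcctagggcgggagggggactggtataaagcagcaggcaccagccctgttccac
Spp1, chr5:104434861-104435110: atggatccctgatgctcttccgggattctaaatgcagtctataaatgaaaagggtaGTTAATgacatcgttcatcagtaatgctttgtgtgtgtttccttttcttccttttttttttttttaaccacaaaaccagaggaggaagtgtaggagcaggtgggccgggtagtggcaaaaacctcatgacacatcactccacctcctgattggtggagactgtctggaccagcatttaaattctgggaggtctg
The motifs were read on both strands of all 32851 RefSeq windows of this length. A motif of SOX factors, ACAAT, occurs in 27.7% of them, and ATCAAT, which ONECUT factors bind, in 6.72%. The letters GATAA of the GATA factors occur in 22.6%, those of HNF1, GTTAAT, in 6.43%, and those of the TEAD factors, CATTCC, in 12.6%. The Muc1 window held 1 TEAD match on the minus strand, which begins 132 bases before the start, and the Spp1 window held 1 HNF1 match, which begins 194 bases before it. The Onecut1 window, as well as those of Krt7 and Cftr, held none of these letters, and a second Spp1 start further downstream held 1 GATA match. GC content was 71.6% in the Onecut1 window, 54.8% in that of Muc1 and 43.6% in that of Spp1. These matches describe the sequence only.

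By the Entrez identifiers and GRCm38 positions in the table, Sox9 is gene 20682 (chr11:112782210-112787757), Onecut1 is 15379 (chr9:74861921-74889648) and Gata6 is 14465 (chr18:11052510-11085839). Krt7 is gene 110310 (chr15:101412403-101427806) and Krt19 is 16669 (chr11:100140810-100145926, minus strand, the other 7 being on the plus strand). Spp1 is gene 20750 (chr5:104435111-104441053), Cftr is 12638 (chr6:18170262-18322774) and Muc1 is 17829 (chr3:89229056-89233381).

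The members differed widely in level, and which cells their RNA came from was not tested. Krt7 was the most abundant of them in islets, at 117.5 ± 21.3 FPKM (SD, n = 48 libraries), while Krt19 was at 2.29 ± 2.18 FPKM in the same libraries. Spp1 stood between them at 29.0 ± 15.9 FPKM, followed by Muc1 at 3.14 ± 1.92 and Gata6 at 2.76 ± 0.897 FPKM. Krt19, Muc1 and Gata6 did not differ from each other beyond their spread over libraries. Sox9 at 0.348 ± 0.200 FPKM and Onecut1 at 0.154 ± 0.150 FPKM were under 1 FPKM in every islet library, and Cftr, the channel of mature duct cells, was at 0.0429 ± 0.0343 FPKM. The order of Krt7 far above Krt19, with Cftr near 0, is a property of these islet libraries, and the genes are called here ductal and progenitor genes by their usual annotation only. Ins1 and Ins2 together made up 53.7% to 75.1% of the FPKM sum of the islet libraries. RNA of whole islets was measured, so that fewer cells of a type and less RNA per cell cannot be told apart.

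**Figure D1:**
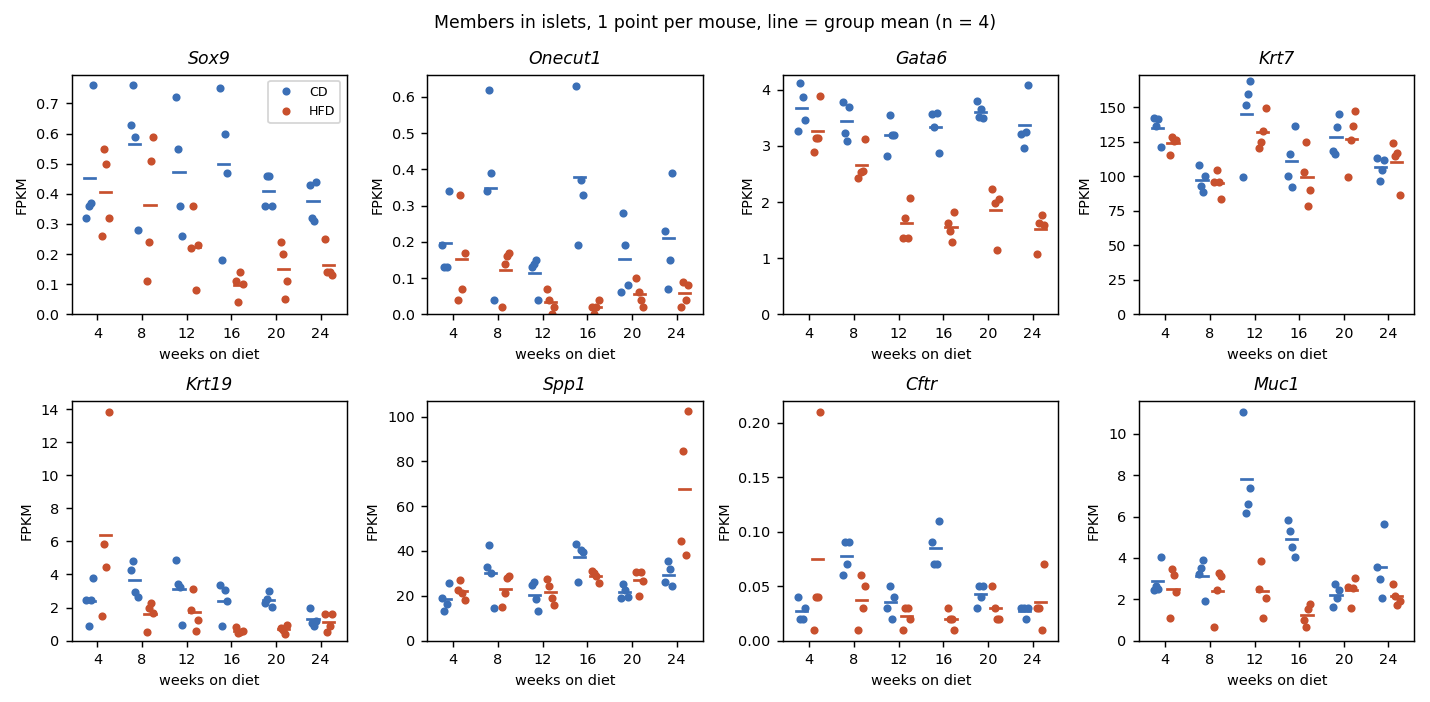
FPKM of the 8 members (one panel each, vertical axis from 0, own scale) in islets against weeks on diet, 1 point per mouse, CD in blue, HFD in red, with short lines at the means of the 4 mice. Gata6 in HFD lies below CD without overlap from week 12 on, Krt7 overlaps in every week, and Spp1 in HFD rises above CD at week 24.

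To test whether HFD altered these genes in islets, the diets were compared within each week by limma on log2(FPKM + 0.1), and p-values were adjusted over the 14692 genes with a mean of at least 0.1 FPKM over the 48 islet libraries. Of the 8 members, 7 passed this minimum and Cftr did not. Onecut1 passed it through its CD libraries, with a mean of 0.234 FPKM in CD and 0.0733 FPKM in HFD. Its calls in islets are therefore given as a description and not as support for a decrease. A gene was called at an adjusted p under 0.05, and fold changes on this scale understate the change of low genes.

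Every call in islets was a lower level in HFD, and the calls peaked at week 16. No member was called at week 4, when 0% of all genes tested were called lower, nor at week 8, when 2.95% were. Gata6 and Muc1 were called at week 12 (3.38% of all genes lower), and Sox9, Onecut1, Gata6, Krt19 and Muc1 at week 16 (7.98%). Sox9, Gata6 and Krt19 were called at week 20 (4.36%), and Sox9 and Gata6 at week 24 (3.26%). The counts of members whose 4 HFD values all lay below all 4 CD values followed the same course. There was none at week 4, where 2.61% of all genes were so separated, and 1 at week 8 (Krt19, against 14.2% of all genes). Week 12 had 2 (5.49%), week 16 had 6 (11.5%), week 20 had 3 (10.7%) and week 24 had 2 (4.85%). The 6 of week 16 include Cftr, whereas the shares cover only the 14692 genes tested, which leave Cftr out. The median log2 fold change of the 7 members tested was -1.52 at week 16, beside -0.01 over all genes, and -0.13 at week 4, beside -0.05.

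Gata6 showed the steadiest decrease. At week 4 it was at 3.26, 3.47, 3.88 and 4.12 FPKM in CD and at 2.89, 3.14, 3.14 and 3.89 FPKM in HFD, so that the groups overlapped. At week 12 the CD mice had 2.82, 3.19, 3.20 and 3.55 FPKM and the HFD mice 1.35, 1.36, 1.72 and 2.08 FPKM, and the groups had separated. They stayed apart in the later weeks, and at week 24 the CD values were 2.96, 3.22, 3.24 and 4.09 FPKM against 1.08, 1.59, 1.62 and 1.76 FPKM in HFD. The log2 fold change went from -0.17 ± 0.13 (SE, n = 4 per diet) at week 4 through -0.36 ± 0.12 at week 8 to -0.95 ± 0.16 at week 12, with adjusted p of 0.768, 0.0986 and 0.00233. It was -1.06 ± 0.13, -0.97 ± 0.18 and -1.12 ± 0.16 at weeks 16, 20 and 24, with adjusted p of 0.000268, 0.0196 and 0.000999. The week 20 value rose to between 0.0512 and 0.0574 on leaving out mouse CD501, CD502 or CD505. With no minimum on the level, the week 12 call of Gata6 was lost. In CD islets Gata6 did not change detectably over the weeks (adjusted p = 0.795), with group means between 3.19 and 3.68 FPKM.

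Sox9 was called lower in HFD at weeks 16, 20 and 24. At week 4 the CD mice had 0.32, 0.36, 0.37 and 0.76 FPKM and the HFD mice 0.26, 0.32, 0.50 and 0.55 FPKM. At week 16 the values were 0.18, 0.47, 0.60 and 0.75 FPKM in CD and 0.04, 0.10, 0.11 and 0.14 FPKM in HFD, and the mean of HFD was 0.195 of that of CD. The groups were separated there, although the lowest CD mouse lay close to the highest HFD mouse. At week 20 all 4 CD mice were between 0.36 and 0.46 FPKM and all 4 HFD mice between 0.05 and 0.24 FPKM, and at week 24 the ranges were 0.31 to 0.44 and 0.13 to 0.25 FPKM. The log2 fold changes were -1.52 ± 0.33 at week 16, -1.09 ± 0.27 at week 20 and -0.85 ± 0.23 at week 24, with adjusted p of 0.0093, 0.0445 and 0.0352. At weeks 4, 8 and 12 they were -0.10 ± 0.29, -0.61 ± 0.39 and -0.83 ± 0.30, and none passed. The calls of weeks 20 and 24 were narrow, since leaving out any of 7 of the 8 mice of the week raised the adjusted p of Sox9 to between 0.0564 and 0.125 at week 20, and to between 0.0506 and 0.0954 at week 24.

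Onecut1, which passed the minimum only through its CD libraries, was called at week 16 alone. There the CD mice had 0.19, 0.33, 0.37 and 0.63 FPKM, and of the HFD mice 1 was listed at 0 and the others at 0.02, 0.02 and 0.04 FPKM. The groups were apart, the log2 fold change was -1.93 ± 0.29 with an adjusted p of 0.00092, and the mean of HFD was 0.0526 of that of CD. In the other 5 weeks the groups overlapped and the log2 fold changes lay between -0.90 (week 24, adjusted p = 0.109) and -0.32 (week 4, adjusted p = 0.851). Values are rounded to 2 decimals in the table, which is coarse at the level of Onecut1 and Cftr.

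The keratins behaved differently from each other. Krt19 at week 4 had 0.87, 2.46, 2.48 and 3.8 FPKM in CD and 1.49, 4.48, 5.83 and 13.84 FPKM in HFD, an overlap with higher values in HFD, and the log2 fold change of 1.15 ± 0.71 did not pass (adjusted p = 0.742). The log2 fold change was 0.65 without mouse HFD118, whose islet library was the least like the others over all genes. At week 20 Krt19 had 2.01, 2.27, 2.51 and 2.97 FPKM in CD and 0.40, 0.61, 0.78 and 0.94 FPKM in HFD. The week 20 groups were clearly apart, and the log2 fold change was -1.74 ± 0.22, at an adjusted p of 0.00463. At week 16 the CD mice had 0.85, 2.41, 3.03 and 3.34 FPKM and the HFD mice 0.47, 0.52, 0.59 and 0.80 FPKM, a separation that the lowest CD mouse made narrow. Its log2 fold change was -1.72 ± 0.38 with an adjusted p of 0.0212, and this call was lost on leaving out any of 4 of the 8 mice (adjusted p between 0.0537 and 0.0756). At week 8 the groups were separated as well, at 2.63 to 4.82 FPKM in CD and 0.49 to 2.25 FPKM in HFD, but the log2 fold change of -1.28 ± 0.45 had an adjusted p of 0.131. At week 24 CD was at 0.89 to 1.97 FPKM and HFD at 0.50 to 1.63 FPKM, with a log2 fold change of -0.21 ± 0.36. Over the CD weeks Krt19 did not change detectably by an F test (adjusted p = 0.208).

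Krt7 was not called in any week, and its groups overlapped in all 6. The means of HFD were between 0.892 of those of CD at week 16 and 1.04 of them at week 24. The log2 fold changes lay between -0.17 ± 0.16 (week 16) and 0.04 ± 0.11 (week 24), which are small beside those of Krt19. In CD islets Krt7 varied with the week, from 97.2 ± 8.72 FPKM (SD, n = 4) at week 8 to 145 ± 31.2 FPKM at week 12, and HFD islets moved alike, from 94.9 ± 8.71 to 132 ± 12.8 FPKM.

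Muc1 was lower in HFD at weeks 12 and 16. At week 12 the CD mice had 6.16, 6.59, 7.37 and 11.08 FPKM and the HFD mice 1.1, 2.04, 2.51 and 3.87 FPKM. At week 16 the values were 4.03, 4.54, 5.30 and 5.83 FPKM in CD and 0.67, 0.97, 1.53 and 1.77 FPKM in HFD. Both weeks showed separated groups, with log2 fold changes of -1.76 ± 0.38 (adjusted p = 0.0452) and -1.98 ± 0.26 (adjusted p = 0.00122). The week 12 call was lost on leaving out any of 6 of the 8 mice (adjusted p between 0.0524 and 0.126). At week 20 the diets were level, at 1.61 to 2.75 FPKM in CD and 1.58 to 3.05 FPKM in HFD, and the log2 fold change was 0.13 ± 0.21.

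Spp1 did not follow the other members. At week 24 the CD mice had 24.15, 26.08, 31.92 and 35.49 FPKM and the HFD mice 38.09, 44.66, 84.73 and 102.58 FPKM. All HFD values were above CD, a separation that 11.7% of all genes showed in this direction in that week, and the mean of HFD was 2.30 times that of CD. The log2 fold change of 1.09 ± 0.36 did not pass when the week was fitted alone (adjusted p = 0.124), and it passed when all 12 groups shared one estimate of the spread (adjusted p = 0.00753). In the other 5 weeks the groups overlapped, with log2 fold changes between -0.35 and 0.30. Cftr stayed between 0.01 and 0.11 FPKM in 47 of the 48 islet libraries, and it was at 0.07, 0.07, 0.09 and 0.11 FPKM in CD and at 0.01, 0.02, 0.02 and 0.03 FPKM in HFD at week 16. With no minimum on the level it had a log2 fold change of -0.62 ± 0.09 there (adjusted p = 0.0144 over 19861 genes), and it passed in no other week.

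**Figure D2:**
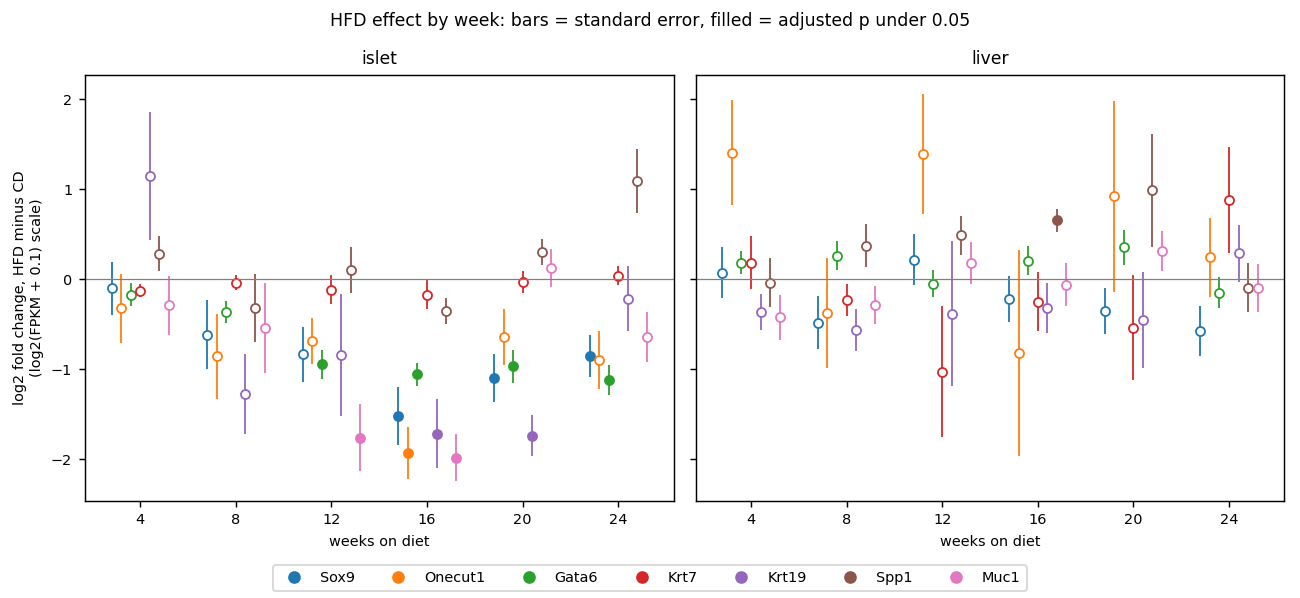
Log2 fold change of HFD against CD on the log2(FPKM + 0.1) scale for the 7 members tested, by weeks on diet, in islets (left) and liver (right), with bars of 1 standard error and filled points where the adjusted p was under 0.05. The filled points in islets are all below 0 and most numerous at week 16, and the only filled point in liver is Spp1 at week 16.

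Over the 6 weeks together, the mean HFD effect in islets was a decrease for 5 members. Among them was Onecut1, which passed the minimum only through its CD libraries. The mean effect was -0.84 ± 0.14 for Sox9 (SE, 48 libraries, adjusted p = 4.98e-06), -0.89 ± 0.15 for Onecut1 (1.18e-05) and -0.77 ± 0.06 for Gata6 (1.72e-13). It was -0.77 ± 0.22 for Krt19 (adjusted p = 0.00504) and -0.85 ± 0.15 for Muc1 (3.16e-05), while Krt7 at -0.07 ± 0.06 and Spp1 at 0.19 ± 0.11 did not pass. Of all genes tested, 24.7% were called lower and 14.9% higher by this measure, that is 3631 and 2185 genes. This balance rested on the scaling of the libraries, since 3284 were lower and 3689 higher with median ratio scaling, and 1985 lower and 4609 higher with Ins1 and Ins2 left out of the library total. The direction of the 5 was the same under each scaling of the libraries tried, whereas that of Krt7 turned to 0.01 when Ins1 and Ins2 were left out of the library total. Whether the HFD effect differed between weeks was tested by an F test of the 5 interaction terms, which 3.72% of all genes passed. Gata6 (adjusted p = 0.00732) and Muc1 (adjusted p = 0.0429) passed it. Krt19 (adjusted p = 0.0684), Spp1 (0.113), Onecut1 (0.293), Sox9 (0.325) and Krt7 (0.93) did not. For Sox9 and Onecut1, the effect is therefore not shown to differ between the weeks that were called and those that were not. The Muc1 value moved across the threshold with single libraries, and leaving out any of 22 of the 48 changed the count of members from 2 to 1.

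Within CD islets 71.7% of all genes differed between weeks, so that a member called here is no exception. Krt7, Spp1 and Muc1 were called (adjusted p = 0.00211, 0.0114 and 0.00135), and Sox9, Onecut1, Gata6 and Krt19 were not. Muc1 in CD ranged from 2.21 ± 0.490 FPKM at week 20 to 7.80 ± 2.24 FPKM at week 12, and Spp1 from 18.6 ± 5.31 FPKM at week 4 to 37.4 ± 7.64 FPKM at week 16. Week, age and any handling particular to a week cannot be told apart.

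Further ductal and progenitor genes were followed in the same islets. Among 18 further ductal genes 17 were tested, and by the mean effect over weeks, by which 24.7% of all genes were lower and 14.9% higher, 8 were lower and 0 higher, with a median log2 fold change of -0.14 beside -0.03 over all genes. With median ratio scaling 7 were lower and 2 higher, and with the insulin genes left out of the library total 5 were lower and 2 higher. Cd24a, a surface glycoprotein of immature and ductal epithelium, was lower in 3 weeks with a mean effect of -0.42 ± 0.05, and Ehf, an ETS factor of epithelia, in 3 weeks with -0.54 ± 0.08. Epcam and Krt18, genes of simple epithelia, had -0.01 each and did not pass. Of 16 progenitor transcription factors, 6 were lower and 0 higher by the mean effect, against the same shares of all genes, with a median of -0.13, and 3 were lower and 1 higher with the insulin genes left out. The 6 were Prox1, Neurog3, Rfx6, Onecut2, Hnf4a and Tead1. Neurog3, which starts endocrine differentiation, had the largest of these mean effects at -0.60 ± 0.12, and Pdx1 at -0.04 ± 0.06 and Hes1 at 0.02 ± 0.06 did not pass.

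Markers of other cells moved in the same libraries, and their part in the results was not tested beyond the values given here. The summed level of 12 acinar genes ranged widely between islet libraries, from 3249 to 99054 FPKM. It was 41019 to 99054 FPKM in CD and 7664 to 37931 FPKM in HFD at week 12, and 18720 to 35171 against 4364 to 13672 FPKM at week 16, the 2 weeks in which Muc1 was called. At week 20 it was 4303 to 11747 FPKM in CD and 10338 to 27047 FPKM in HFD. By the mean effect 4 of the 12 acinar genes were lower, among them Amy1 at -1.34 ± 0.18, and 0 were higher, beside the 24.7% and 14.9% of all genes. The median of the 12 was -0.47, well short of Amy1. By week, that median ran from -1.53 at week 12 to 1.07 at week 20. With the mean log2 level of the acinar genes as a covariate, an alternative chosen after the data were seen, Muc1 changed by 0.69 ± 0.07 per unit of that level. This slope was 0.50 ± 0.17 for Krt19, 0.45 ± 0.10 for Sox9 and 0.29 ± 0.13 for Onecut1. For Spp1 it was 0.12 ± 0.10, for Gata6 0.05 ± 0.05 and for Krt7 -0.08 ± 0.05. The mean HFD effect of Muc1 was then -0.49 ± 0.09 (adjusted p = 4.76e-05) and that of Sox9 -0.60 ± 0.12 (0.000217). That of Onecut1 was -0.74 ± 0.16 (0.000416) and that of Gata6 -0.75 ± 0.07 (1.39e-11). Krt19 at -0.51 ± 0.22 no longer passed (adjusted p = 0.0653), and Muc1 no longer differed between weeks in its HFD effect (adjusted p = 0.0981) or over the CD weeks (0.533). Krt19 now differed between weeks in its HFD effect (0.019) and over the CD weeks (0.04), as did Onecut1 over the CD weeks (0.0204). By week, that fit pools the 12 groups, and 3 calls made in such a pooled fit without the covariate were lost with it. They were Muc1 at week 12 (-0.75, adjusted p = 0.0502), Krt19 at week 16 (-0.99, adjusted p = 0.385) and Sox9 at week 16 (-0.88, adjusted p = 0.105). Muc1 at week 16 was called at -0.99 (adjusted p = 0.00412) instead of -1.98. The other values called with the covariate were those of Gata6 at weeks 12 to 24, Onecut1 at week 16 (-1.51), Sox9 (-1.46) and Krt19 (-2.15) at week 20, and Spp1, higher at week 24 (1.15, adjusted p = 0.00549).

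The endocrine cells that are not beta cells moved as well. All 5 alpha-cell genes and all 3 delta-cell genes tested were lower by the mean effect, with Gcg, which encodes glucagon, at -1.57 ± 0.10 and Irx2 at -1.25 ± 0.08. Sst, which encodes somatostatin, had -1.49 ± 0.09, and Hhex, the transcription factor of delta cells, -1.32 ± 0.14. The summed delta-cell level at week 24 was 2317 to 2958 FPKM in CD and 330.21 to 634 FPKM in HFD. Mesothelial cells, which also carry keratins, were represented by 5 genes, of which Upk1b, Wt1 and Lrrn4 were under 0.1 FPKM on average. Their summed level was 3.67 to 9.00 FPKM in CD and 0.46 to 1.13 FPKM in HFD at week 24, and nearly all of it was Msln, with a mean of 6.08 FPKM in CD. Msln had a mean effect of -1.74 ± 0.19 and was called lower, while Upk3b, the only other gene of the list that was tested, had -0.58 ± 0.26 and did not pass (adjusted p = 0.0776). Among 10 macrophage genes 4 were higher by the mean effect and 1, Cd9, was lower (-0.82 ± 0.09), and 7 were higher under either of the other scalings. At week 24 their summed level, in which abundant genes weigh most, was 83.8 to 105 FPKM in CD and 83.7 to 107 FPKM in HFD, which overlap. Gpnmb, a glycoprotein of lipid-laden macrophages, was called higher by the mean effect (0.62 ± 0.16, adjusted p = 0.00143) and had 1.17 ± 0.40 at week 24 (adjusted p = 0.0947). In week 24 alone, 0 of the 10 macrophage genes were called higher and 1 was called lower, with a median of 0.12. Of all genes, 5.46% were called higher and 3.26% lower in that week. Of the remaining lists, 2 of 7 stromal genes were lower and 2 higher, Rgs5 among the latter (0.39 ± 0.05). Among 5 endothelial genes 1 was lower and 2 were higher, of 5 lymphocyte genes 1 was lower, of 5 beta-cell genes 2 were lower and 3 higher, Ucn3 among the latter (0.29 ± 0.04), and of 4 hepatocyte genes 1 was lower and 2 were higher. The lower one is Ttr, which is also among the alpha-cell genes. All these counts are by the mean effect, and such small lists allow no reading against the 24.7% of genes lower and 14.9% higher.

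Apart from diet and week, the members fell into more than one pattern of variation between mice. This was described by the Pearson correlation of log2(FPKM + 0.1) over the 48 islet libraries once every library had been set against the mean of its own group. The points share the scaling of each library, including its acinar content. Sox9 varied together with Krt19 (r = 0.68), Onecut1 (0.67) and Muc1 (0.66), and Onecut1 with Spp1 (0.62). Krt7 went against Sox9 (r = -0.41) and Spp1 (-0.41). Gata6 varied little with Sox9 (r = 0.20) and more with the mean of the 3 delta-cell genes (0.72) and of the 5 alpha-cell genes (0.62). Muc1 varied most closely with the mean of the acinar genes (r = 0.84), for which Sox9 had 0.60 and Gata6 0.15. Spp1 had r = 0.07 with the mean of the 10 macrophage genes. Among all 11643 genes with a mean of at least 1 FPKM, those most like Sox9 were Scara3 (r = 0.83), Pik3ap1 (0.80) and Myrf (0.78). Those most like Onecut1 were Gas6 (0.77), Cxcl12 (0.76) and Pik3ap1 (0.73), and those most like Spp1 were Gas6 (0.65), Mgst1 (0.64) and Hyal1 (0.59). Gata6 was followed most closely by Hhex (0.71), Mamld1 (0.70) and Edn3 (0.69), and Krt19 by Aldh1a1 (0.71), St3gal4 (0.71) and Mgst1 (0.71). Krt7 had Fam19a5 (0.87), Sgsm3 (0.86) and Raver1 (0.80), Cftr had Cdhr2 (0.77), Ccl25 (0.76) and Ephx2 (0.75), and those of Muc1 included Reg1 (0.85) and Pnliprp2 (0.85), which encode secreted proteins of acinar cells. Cftr was near 0, and its highest deviation, 0.95 in mouse HFD118, was far above the next, 0.35 in mouse HFD617. Whether the correlations of Cftr hold without mouse HFD118 was not tested.

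**Figure D3:**
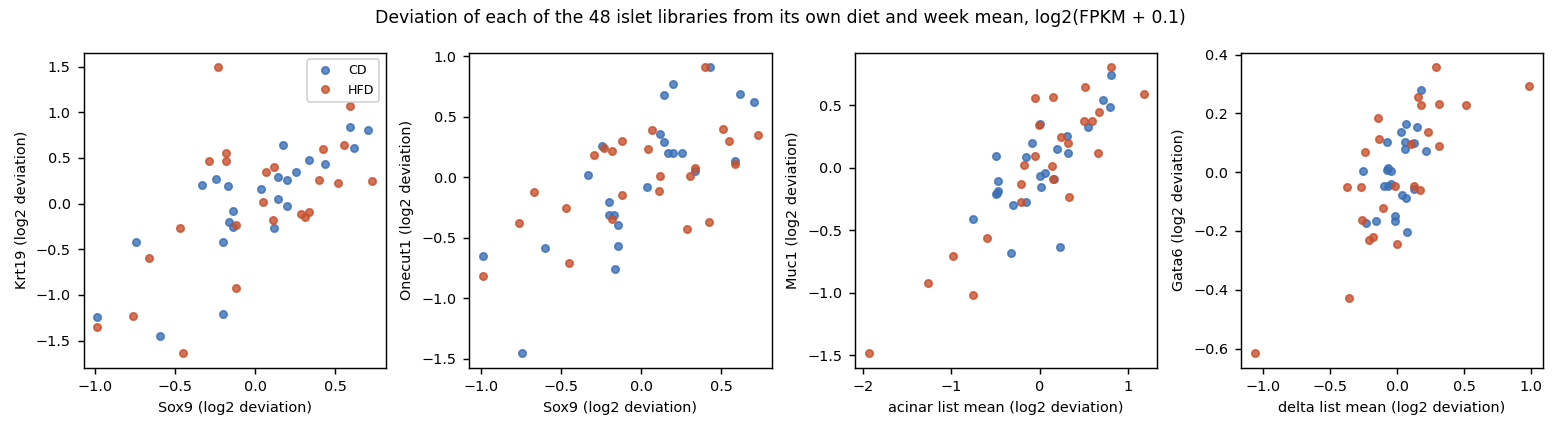
Each point is 1 of the 48 islet libraries, CD in blue and HFD in red, as its deviation from the mean of its own diet and week in log2(FPKM + 0.1), for Krt19 and Onecut1 against Sox9, Muc1 against the mean of the acinar genes, and Gata6 against the mean of the delta-cell genes. The cloud of Muc1 against the acinar genes is the tightest of the 4 (r = 0.84).

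The liver of the same mice showed other levels and little response. Spp1 was the only member called there, by the mean effect (0.40 ± 0.15, adjusted p = 0.031, with 41.5% of the 13186 genes called in either direction) and at week 16. With median ratio scaling its mean effect of 0.28 ± 0.14 did not pass (adjusted p = 0.115), and Sox9 was called lower instead (-0.33 ± 0.13, adjusted p = 0.0356). At week 16 Spp1 had 21.43, 22.23, 26.18 and 29.84 FPKM in CD and 33.41, 40.45, 40.51 and 42.16 FPKM in HFD, apart in the way that 12.5% of all genes were, and the log2 fold change was 0.66 ± 0.13 (adjusted p = 0.013). This call was lost with no minimum on the level (adjusted p = 0.0535) and when all 12 liver groups shared one estimate of the spread (adjusted p = 0.3). At week 20 a single HFD mouse reached 218.32 FPKM, while the other 3 were at 30.75 to 34.76 FPKM and CD at 21.72 to 30.83 FPKM. None of the 7 members tested was called in the other 5 weeks, and the share of all genes called in either direction was 0.00758%, 5.62%, 8.91%, 7.91%, 2.66% and 0.895% from week 4 to week 24. Gata6 in liver was above CD without overlap at week 4, at 1.56 to 1.79 FPKM in CD and 1.89 to 2.04 FPKM in HFD, as were 6.58% of all genes, and its log2 fold change of 0.19 ± 0.13 did not pass. Krt7 and Krt19 were high together in 2 CD livers, at 3.27 and 5.77 FPKM in mouse CD304 and at 2.57 and 4.57 FPKM in mouse CD502, beside medians over all livers of 0.31 and 0.80 FPKM. In the liver of HFD mouse HFD614, Krt7 was also high at 2.25 FPKM, with Krt19 at 1.29 FPKM.

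Between the tissues, 4 members were higher in islets and 2 in liver by FPKM as deposited. Krt7 was higher in islets by 7.89 ± 0.12 on the log2 scale, Muc1 by 2.80 ± 0.09, Krt19 by 0.96 ± 0.15 and Gata6 by 0.15 ± 0.05. In this direction 66.3% of 14893 genes were called. When the libraries were scaled by median ratios, Gata6 was lower in islets (-0.50 ± 0.05) and Krt19 higher by only 0.35 ± 0.15 (adjusted p = 0.0248). Onecut1 was lower in islets (-3.39 ± 0.20), with 2.27 FPKM as its median in liver, and so was Sox9 (-1.65 ± 0.09), as were 29.3% of genes. By FPKM as deposited, all 6 had an adjusted p of 0.00113 or less, and Spp1 with 0.04 ± 0.10 was not called. Spp1 was lower in islets with median ratio scaling (-0.64 ± 0.09, adjusted p = 1.62e-09). Over all genes the median difference was 0.76, above that of Gata6, and the scaling brought it to 0.12. The mean HFD effect was lower in islets than in liver for Gata6 by -0.91 ± 0.09 (adjusted p = 1.75e-13), Onecut1 by -1.35 ± 0.39 (0.00382), Muc1 by -0.79 ± 0.18 (0.000235) and Sox9 by -0.61 ± 0.19 (0.00587). This difference was called in the same direction in 36.2% of all genes. It was lost for Sox9 with median ratio scaling (-0.41, adjusted p = 0.0659), and for Sox9 (-0.11, adjusted p = 0.301) and Onecut1 (-0.56, adjusted p = 0.0782) with a pseudocount of 1 FPKM. For Krt19 it was -0.48 ± 0.30 (adjusted p = 0.197), and for Spp1 -0.21 ± 0.19 and for Krt7 0.09 ± 0.24, none of which passed.

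**Figure D4:**
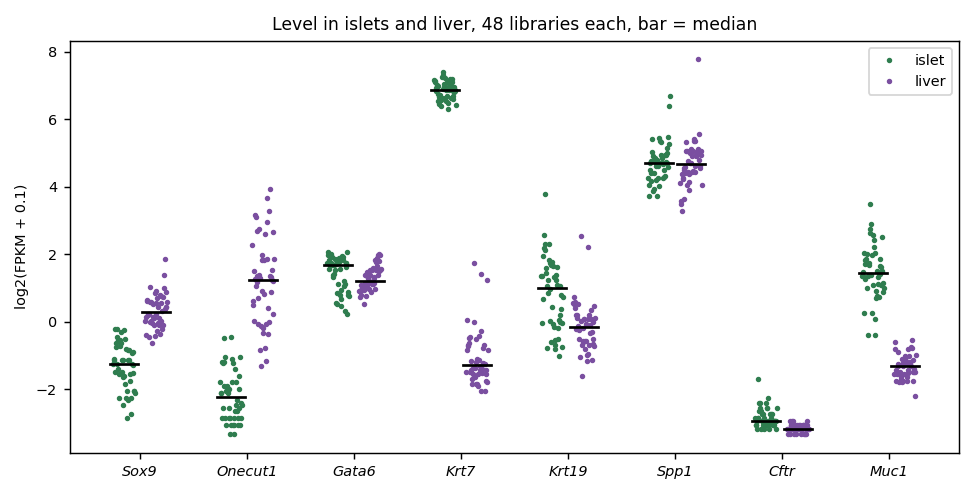
Level of each member as log2(FPKM + 0.1) in the 48 islet (green) and 48 liver (purple) libraries, 1 point per library, with the median as a bar. Krt7 differs most between the tissues, Onecut1 and Sox9 are higher in liver, and Spp1 is level in FPKM as deposited, though lower in islets after median ratio scaling.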

How the data were processed

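Poly(A) RNA of islets and liver was sequenced from the same 48 mice, 4 per diet and week. The authors deposited FPKM values per gene and library, rounded to 2 decimals, and the submitters' processing notes name HISAT2 2.0.4, Bowtie2 2.2.5, RSEM 1.1.12, DESeq2 and the build GRCm38.p5. Counts were not used here, so depth is unknown, and no interval based on reads was given. The deposited columns of the authors' own comparisons (216 columns, DEGseq) were not used. Of 21990 genes, 1835 had no values.

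Libraries were grouped by the tissue, diet and week of their labels. Replicates are separate mice. Differences were tested in R 4.3.3 by limma 3.58.1 (lmFit, eBayes with trend and robust settings) on log2(FPKM + 0.1), for genes with a mean of at least 0.1 FPKM over the libraries of the tissue (over all 96 for comparisons of tissues), with Benjamini-Hochberg adjustment over all genes tested. Each week was fitted alone for HFD against CD, and mean effects, interactions and tissue differences came from one fit of all groups. The script was tested on simulated data. Islet and liver libraries with the same mouse number come from the same mouse, and mouse as a replicate block was an alternative. Further alternatives were a pseudocount of 1, a minimum of 1 FPKM or none, median ratio scaling, insulin genes left out of the library total, one fit of all 12 groups, a requirement of 1 log2 unit of change in either direction, and each mouse left out in turn.

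The 8 members and the lists of other genes were chosen with earlier results of these data known, and Sox9, Onecut1 and Gata6 were also singled out by the study in these libraries, so their direction is not independent evidence. All members were described. Of the other lists, genes called in the same direction in at least 3 of 6 islet weeks were named, at most 6 per list. The other list genes with values (Epcam, Krt18, Neurog3, Pdx1, Hes1, Amy1, Gpnmb, Upk3b and the remaining named factors) were picked after their values were seen. The 3 most alike genes of each member were named from correlations within diet and week. Some genes that these rules name are not reported here. No 2 libraries held the same values (highest correlation 0.998). Promoter sequences are from RefSeq, GRCm38.p6. Figures were drawn with matplotlib 3.10.9.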

Additional observations from a re-analysis of the deposited data

Results flagged for a closer look

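In 96 groups of 4 islet libraries (8 members, 2 diets, 6 weeks), 5 single mice stood so far from the other 3 that the gap exceeded Dixon's 95% critical value for its share of the range, and chance flags about 1 group in 20. At week 4, CD mouse CD106 had 0.76 FPKM of Sox9, with the other 3 at 0.32 to 0.37, and 4.03 FPKM of Muc1, with the others at 2.44 to 2.66. The same mouse had the highest Krt19 (3.8 FPKM), Onecut1 (0.34 FPKM) and Spp1 (25.74 FPKM) of its group. At week 4, HFD mouse HFD118 had 0.21 FPKM of Cftr, with the others at 0.01 to 0.04, and it also had the highest Krt19 of all islet libraries (13.84 FPKM), while its Sox9 was 0.32 FPKM. Over all genes, its islet library was the least like the others. Its highest correlation with any islet library was 0.987, and its mean correlation with its own group was 0.986. At week 24, HFD mouse HFD611 had 0.25 FPKM of Sox9, with the others at 0.13 to 0.14. CD mouse CD606 had 0.02 FPKM of Cftr at week 24, with the others at 0.03, which is 1 step of the rounding.

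The HFD effect differed between weeks in islets for Gata6 (adjusted p = 0.00732) and Muc1 (adjusted p = 0.0429), by the F test of the interaction terms, which 3.72% of all genes passed. The Muc1 value did not pass with the acinar level as a covariate (adjusted p = 0.0981). The HFD effect differed between islets and liver for 4 members, with a difference of -0.91 for Gata6, -1.35 for Onecut1, -0.79 for Muc1 and -0.61 for Sox9 on the log2 scale. In each of the 4 the mean effect was lower in islets, as it was called in 36.2% of all genes. The difference was lost for Sox9 with median ratio scaling (adjusted p = 0.0659) and for Sox9 (0.301) and Onecut1 (0.0782) with a pseudocount of 1 FPKM.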

How the results depend on the processing

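The islet mean HFD effect was called for 5 members with a pseudocount of 1, no minimum, median ratio scaling or the insulin genes left out, and for 3 with a minimum of 1 FPKM, where Sox9 and Onecut1 could not be tested. The requirement of 1 log2 unit was applied to single weeks only, and none of the 5 mean effects reaches it. With the alternatives chosen after the data were seen, 4 were called with the acinar level as a covariate and 5 with week 12 left out. A minimum of 1 FPKM left 1 member lower in week 12, 3 in week 16 and 1 in week 24. With no minimum the counts were 0 (week 12), 1 (week 20) and 1 (week 24), with no call in liver at week 16 (0). Median ratio scaling left 1 at week 12, one fit of all 12 groups left 1 at week 24 and 0 in liver at week 16, and the requirement of 1 log2 unit of change left 1 at week 12, 1 at week 24 and 0 in liver at week 16. With insulin left out of the library total, 4 members differed between weeks in their HFD effect and 5 between weeks in CD, and with a pseudocount of 1 the tissue difference in the HFD effect held for 2 members. In level between tissues, Gata6 turned to -0.50 with median ratio scaling. The cause was not tested.

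Leaving out each mouse in turn gave counts of members lower of 0 to 1 (week 8), 1 to 2 (week 12), 4 to 6 (week 16), 1 to 3 (week 20) and 1 to 2 (week 24). The count for diet by week ranged from 1 to 3, that for CD over weeks from 3 to 4, that for the liver mean effect from 1 to 2 and that for liver week 8 from 0 to 1. The islet mean effect stayed at 5 in all 48 such fits. Directions of the islet HFD effect turned only for values that were not called. With median ratio scaling Krt7 turned to 0.087 at week 8, 0.016 at week 20 and -0.027 at week 24. With insulin left out it turned to 0.178 at week 12, 0.031 at week 16 and 0.010 over all weeks. On leaving out single mice, Sox9 at week 4 ranged from -0.234 to 0.133, Muc1 from -0.475 to 0.049 at week 4 and from -0.012 to 0.313 at week 20, and Spp1 at week 12 from -0.093 to 0.239. Krt7 ranged from -0.084 to 0.025 at week 8, from -0.102 to 0.087 at week 20 and from -0.020 to 0.156 at week 24, and Krt19 at week 24 from -0.415 to 0.095.

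Leaving insulin out moved the median of all islet genes by 0.27 at week 12 and 0.19 at week 16, and median ratio scaling moved it by 0.12 at islet week 8 and by -0.16 at liver week 12. With mouse as a replicate block (pairing by the same animal, consensus correlation 0.0516), 6 members differed in level between tissues and 4 in the HFD effect, and no call of a member changed.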
